A study of Mus musculus with 3 samples.

Results

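The cells described here were cycling cells of the mouse small intestinal epithelium with few or no transcripts of adenoma genes, chosen in 3 single-cell RNA libraries of sorted EpCAM+ cells. A cell entered when it had at least 500 detected genes and at most 20% mitochondrial transcripts, held at least 4 UMIs (unique molecular identifiers, each standing for 1 captured RNA molecule) summed over 8 genes of proliferation (Mki67, Top2a, Birc5, Ube2c, Cdk1, Ccnb1, Ccnb2 and Cenpf), no UMI of the stem cell receptor gene Lgr5, and at most 1 UMI summed over the 4 adenoma genes Sox17, Msx1, Nkd1 and Notum. Shares of Wfdc18 under 0.12%, of the goblet gene Tff3 under 2% and of the Paneth gene Defa24 under 5% of a cell's UMIs were also required. The rule took 5116 of the 39227 cells that passed the quality limits: 2599 in the WT library, 1500 in LApc and 1017 in LApcL. These measured values chose the cells, so the genes of the rule are given below as a description only.

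LApc stands for the genotype Lgr5-CreERT2;Apc fl/fl and LApcL for the same alleles together with Lef1 fl/fl; WT is the wild-type label, which does not say whether that mouse carried the Cre. The labels give all 3 mice as C57BL/6, 7 to 8 weeks old at the start and given 2 doses of 2 mg tamoxifen, the drug that switches the Cre on; the study's methods name a single dose for wild-type and Lef1 fl/fl mice, so the dose of the WT mouse is stated here as labelled. Tissue was taken at day 21 for WT and LApcL and at day 29 for LApc. Each genotype is 1 mouse and 1 library, so a difference between genotypes cannot be told apart from a difference between mice, libraries or, for LApc, days. No test between genotypes is possible, and every interval below is a 95% interval that covers counting error only. The Cre is expressed from the Lgr5 locus, so recombination starts in stem cells and a genotype label describes the mouse, not each cell.

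Transit-amplifying cells are the rapidly dividing daughters of the Lgr5+ stem cells at the crypt base. They pass through a few rounds of DNA replication and mitosis while they move up the crypt, and then stop dividing and mature into absorptive enterocytes or into secretory goblet, Paneth, enteroendocrine or tuft cells. Wnt signals keep crypt cells dividing; loss of Apc makes that signal permanent and gives rise to adenomas, and Lef1 is one of the transcription factors through which the signal acts.

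The members held the cycling transcripts that their label names, which a rule on proliferation genes brings with it. The part of the label on adenoma transcripts is taken up below. Of the marker genes given for them, Tk1, which makes thymidine nucleotides, was at 124, 127 and 118 CPM (the UMIs of a gene summed over the members of a library, per 1000000 UMIs of those cells) for WT, LApc and LApcL. It was at 7.22, 10.1 and 12.3 CPM in the cells of the same limits that held no UMI of the 8 proliferation genes, called non-cycling cells below. The replication histone Hist1h2ap was at 226, 254 and 298 CPM against 5.27, 4.58 and 12.8 CPM. Cdca7, a crypt gene, was at 115, 103 and 109 CPM against 26.4, 29.7 and 47.1 CPM. The other markers, Mki67 and Top2a, belong to the rule. The same 8 proliferation genes set members and non-cycling cells apart, so the differences in these markers are a description only. Immune markers summed to 1.40, 12.3 and 1.75 CPM over 7 genes, with Gzma, a cytotoxic lymphocyte protease, at 0.537, 9.21 and 0.923 CPM and the leukocyte gene Ptprc at 0.388, 0.913 and 0.0923 CPM. Stromal markers summed to 0.119, 1.29 and 1.11 CPM over 6 genes, and the collagen genes Col1a1, Col3a1 and Col1a2 were at 0 UMIs in WT and LApcL.

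Of the targeted genes, Lef1 was represented by 2, 5 and 9 UMIs in all members of WT, LApc and LApcL, and Apc by 671, 290 and 251 UMIs (20.02, 22.1 and 23.2 CPM). The libraries count the 3′ ends of transcripts, and the sources used here do not say whether the deleted exons hold the counted ends, so these values do not check the genotypes. The members' median depth was 12072, 8336 and 10449 UMIs for WT, LApc and LApcL, and their lowest totals were 5846, 1823 and 2836 UMIs. Pairs of libraries shared 214 to 318 barcode sequences, of which 3 to 5 were members in both libraries of a pair.

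Members made up 22.8% (22.0 to 23.6%) of the WT cells that passed the quality limits, 13.8% (13.2 to 14.5%) of the LApc cells and 5.99% (5.64 to 6.36%) of the LApcL cells. Among cycling cells, those with at least 4 UMIs of the proliferation genes, they were the majority in WT (66.6%) and LApc (63.0%) and a minority in LApcL (12.0%). In LApcL, 7220 of the 8446 cycling cells held 2 or more adenoma UMIs. The count was 516 of 2381 for LApc and 11 of 3902 for WT. When the denominator was limited to cells that met every limit except the one on proliferation genes, the shares of members were 43.0% (41.8 to 44.3%) for WT, 22.3% (21.3 to 23.3%) for LApc and 28.6% (27.2 to 30.2%) for LApcL, so LApcL then stood above LApc.

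Sequencing depth differed between the libraries: the all-cell median was 9984 UMIs for WT, 6292 for LApc and 10478.5 for LApcL. The rule counts UMIs, so the shares depend on depth. With each cell thinned to 5000 UMIs before the rule and shallower cells left out, 19.2% of 11137 WT cells, 16.4% of 7355 LApc cells and 8.93% of 15473 LApcL cells were members. Thinning lowers the counts of the adenoma genes and Lgr5 as well as those of the proliferation genes, so cells could enter as well as leave: WT then had 2133 members, LApc 1206 and LApcL 1382. The order of the libraries was kept with both changes made together, but the log2 ratio of LApc over WT went from -0.72 to -0.22, and that of LApcL over WT from -1.93 to -1.10.

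The limit on adenoma UMIs divided the cells of the 3 libraries very differently. Among cycling WT cells inside the other limits, 2562 held no adenoma UMI, 37 held 1 and 2 held 2. In LApc the same counts were 1392, 108 and 33. In LApcL they were 564, 453 and 327, followed by 364 cells with 3 and 408 with 4. The LApcL counts thus fell to 327 just past the limit and then rose, with no empty gap at the limit. Exactly 1 adenoma UMI was present in 1.42% (1.00 to 1.96%) of the WT members, 7.20% (5.94 to 8.63%) of the LApc members and 44.5% (41.5 to 47.7%) of the LApcL members.

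**Figure D1:**
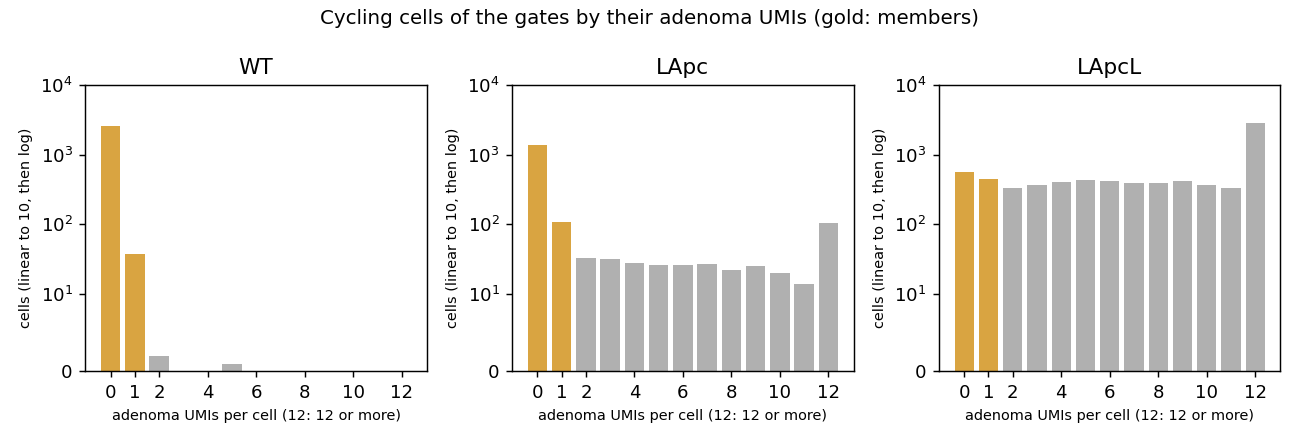
Number of cycling cells inside the other limits (vertical axis, linear to 10 and logarithmic above) by their summed UMIs of Sox17, Msx1, Nkd1 and Notum (horizontal axis, 12 standing for 12 or more), 1 panel per library, with members in gold. In WT 3 cells lie past the limit, 2 of them at 2 UMIs, while LApcL has 453 cells at 1 UMI, 327 at 2 and 364 at 3.

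Genes that the rule did not use went against the name "without adenoma transcripts" for LApcL and for a smaller set of LApc cells. Ifitm1, an interferon-inducible membrane protein, was at 85.6 CPM in LApcL members with no adenoma UMI, 185 CPM in those with 1, 273 CPM in the excluded cells with 2 and 1066 CPM in all cycling cells that the limit of 2 or more kept out. In LApc the same steps were 19.1, 271, 625 and 1756 CPM. WT members held 6 UMIs of Ifitm1 in all (0.179 CPM). In both Apc fl/fl libraries the level was higher at each step, on both sides of the limit.

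The calcium-regulated genes Anxa1 and S100a6 were also higher with 1 and 2 adenoma UMIs than with none. In LApcL, Anxa1 was at 13.1 CPM with no adenoma UMI, 74.8 CPM with 1 and 78.9 CPM with 2. S100a6 was at 749.9, 2217 and 3652 CPM in the same 3 steps, against 80.9 CPM in WT members with no adenoma UMI. All excluded LApcL cells together stood below those with 2 UMIs for both genes, at 61.0 CPM for Anxa1 and 3143 CPM for S100a6. Cd44, a Wnt target that encodes a hyaluronan receptor of crypt cells, was at 53.7, 99.2 and 146 CPM in those steps. WT members had Cd44 at 19.4 CPM with no adenoma UMI and 34.6 CPM in the 37 cells with 1, so for this gene the step was seen in WT too.

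Part of this signal was also found in mature cells of the same library. Non-cycling cells in which the enterocyte gene Apoa4 made up at least 0.1% of UMIs held Ifitm1 at 0, 26.5 and 86.2 CPM in WT, LApc and LApcL. In LApcL this is as high as in members with no adenoma UMI, so their Ifitm1 was not above that background. The corresponding S100a6 values were 104, 357 and 909 CPM, and here too the LApcL value was no lower than in members with no adenoma UMI. Anxa1 and Cd44 were lower in these mature LApcL cells than in members with no adenoma UMI, at 5.57 and 15.7 CPM. Members with 1 adenoma UMI stood above the mature cells of their library for each of Ifitm1, S100a6, Anxa1 and Cd44 in LApc and LApcL. The share of free RNA in these values was not tested.

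**Figure D2:**
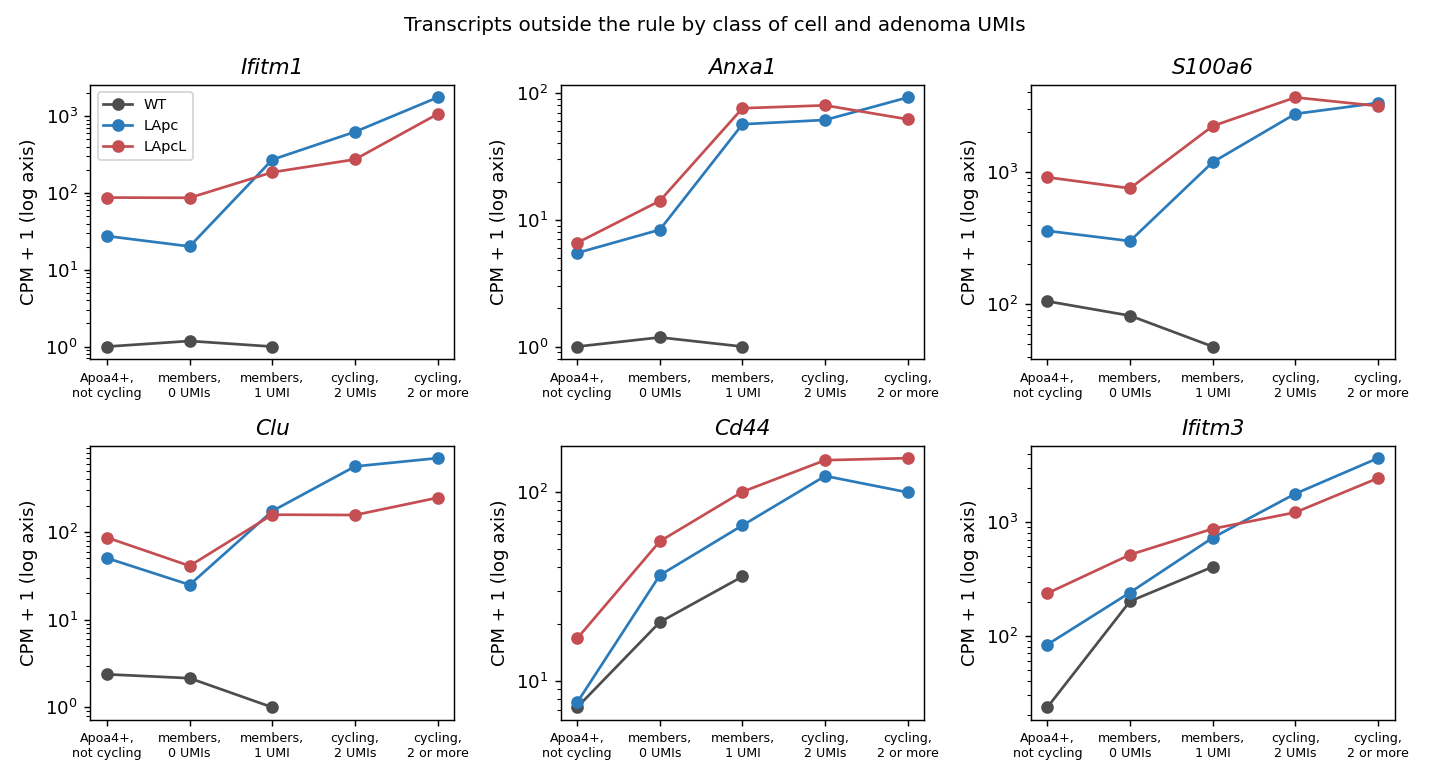
CPM + 1 (vertical axis, logarithmic) of 6 genes outside the rule in 5 classes of cells ordered along the horizontal axis, from non-cycling cells with Apoa4 through members with 0 and 1 adenoma UMI to excluded cycling cells with 2 and with 2 or more; colours are libraries and each point is 1 pool of cells. LApc and LApcL values climb across the limit for most genes (not for Clu in LApcL), for example Ifitm1 in LApcL from 85.6 to 185 and 273 CPM; WT has too few excluded cells to be drawn there.

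Most of the Anxa1 UMIs of LApcL members, 399 of 438, sat in 1 group of cells. The members of each library were clustered on their own, without the cell cycle and rule genes, and 1 LApcL cluster of 217 members, 21.3% (18.9 to 24.0%) was led by Anxa1, S100a6, Ly6d, Ly6a and Cldn4. In that cluster Anxa1 was at 172 CPM and S100a6 at 5137 CPM, while in the other 7 LApcL clusters Anxa1 ran from 1.83 to 19.4 CPM. Of its cells, 74.2% held 1 adenoma UMI, and 6 of the 19 crypt genes (Ascl2, Axin2, Rnf43, Cd44, Myc and Msi1) were at least 2-fold above the mean of the other clusters. None of its 10 leading genes was a crypt gene, so it was left unnamed. LApc had a like group of 50 members, 3.33% (2.48 to 4.37%), led by Areg, S100a6, Tff1, Clu and Anxa1, in which 42.0% of cells held 1 adenoma UMI; it was adenoma-like by Prox1, Vim and S100g, 3 of 13 genes, while 3 of the 19 crypt genes were raised too. No WT cluster had Anxa1, S100a6, Areg, Tff1 or Clu among its 10 leading genes.

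The LApcL group was nearer than most to the lower limit on proliferation genes. It held a median of 8 UMIs of those genes per cell, against 15 in the largest LApcL cluster, and its Tk1 was at 65.6 CPM against 161 CPM there. At the limit itself, cells with 4 UMIs had Tk1 at 61.0, 72.3 and 61.2 CPM in WT, LApc and LApcL, and cells just outside with 3 UMIs had 39.1, 56.0 and 37.5 CPM. Fabp2, a fatty acid-binding protein of enterocytes, was at 1676, 1641 and 1951 CPM just inside and 3322, 3248 and 2177 CPM just outside. Cells at the limit thus had less Tk1 and more Fabp2 than members as a whole in each library. The rule itself picks these cells for few proliferation UMIs. Not every marker was lower there: Cdca7 with 4 UMIs was at 112, 121 and 118 CPM, near or above its level in all members.

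Members differed in where they stood in the cell cycle. UMIs were summed over 62 genes of S phase (origin licensing, the replication fork and nucleotide synthesis) and over 54 genes of the mitotic spindle and chromosome segregation, in cells thinned to 3000 UMIs. S-phase UMIs outnumbered spindle UMIs in 41.5% (39.6 to 43.4%) of 2599 WT members, 32.9% (30.5 to 35.3%) of 1478 LApc members and 51.9% (48.8 to 55.1%) of 1007 LApcL members; 22 LApc and 10 LApcL members were too shallow to be thinned. The 3 intervals did not overlap. Between 20.1 and 26.8% of members had sums within 2 UMIs of each other, so many cells lay close to the divide. Neither list holds a gene of the rule, but the 8 proliferation genes are themselves highest late in the cycle, so the rule bears on this share. The spindle list also holds Hmgb2, an abundant chromatin protein gene. It was at 1171, 1303 and 964 CPM in WT, LApc and LApcL members with no adenoma UMI. The mean spindle sums were 12.0, 13.3 and 10.1 of 3000 UMIs, so Hmgb2 weighs heavily in them. The share without Hmgb2 was not tested. With each cell thinned to 5000 UMIs before the rule the shares were 32.1%, 26.5% and 42.8%, in the same order.

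**Figure D3:**
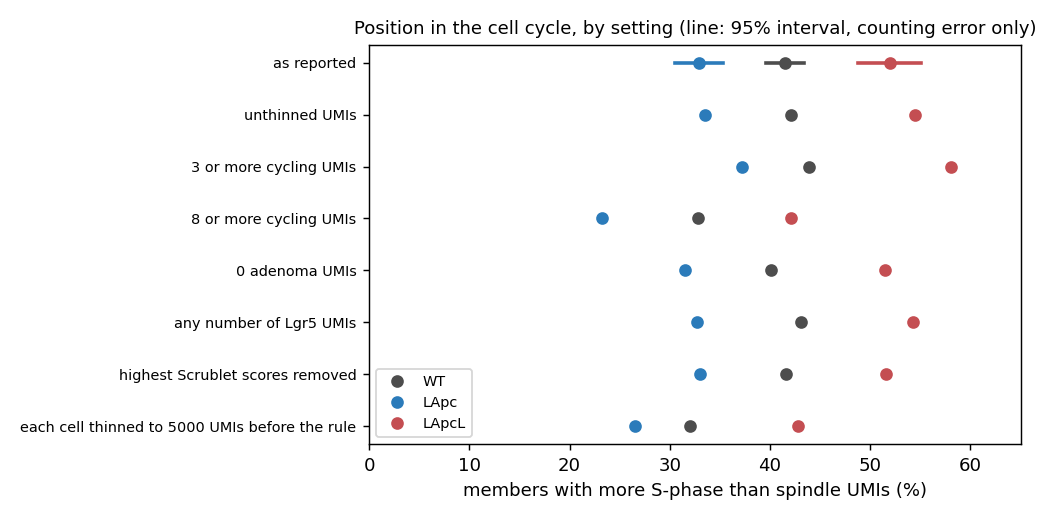
Share of members with more S-phase than spindle UMIs (horizontal axis, percent) in each library (colours) under 8 settings listed vertically; lines on the top setting are 95% intervals for counting error. LApc is lowest and LApcL highest in every setting drawn, with values as reported of 32.9, 41.5 and 51.9% for LApc, WT and LApcL.

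Some genes outside these lists differed across the divide. Ung, which removes uracil from DNA, was at 42.0, 35.8 and 47.1 CPM in S-rich members of WT, LApc and LApcL, and at 6.88, 7.35 and 11.9 CPM in spindle-rich members. The chromatin remodeller gene Hells differed by 1.68, 1.61 and 1.38 on the log2 scale, and Ccne1, the cyclin that starts S phase, by 2.36, 2.63 and 1.73. On the other side, Ccna2, the cyclin of late S phase and G2, was at -1.11, -0.96 and -1.08, and the centrosomal kinase gene Nek2 at -1.54, -1.62 and -1.30. Ccnd1 and Ccnd2, the cyclins of G1, differed by at most 0.16 in either direction in any library. The replication histone Hist1h2ap, made in S phase, was not on the S-phase side, with -0.19, -0.22 and -0.41 on the log2 scale. Ung, Hells, Ccna2 and Nek2 were ranked by the library with the smallest difference, a choice made after the values were seen. Ccne1 did not come from that ranking.

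S-phase and spindle genes are classically switched on by different promoter elements, with E2F factors acting on the former and the CCAAT box with the cell cycle homology region, TTTGAA, on the latter. The last 150 bases before the RefSeq start (build GRCm38.p6) are shown for the 2 most abundant genes of the origin licensing list and of the spindle list that lie outside the rule and have a single start, with 3 motifs in capitals on either strand: the CCAAT box, the homology region TTTGAA, and the E2F-type motif TTCCCGC.
Mcm6, a subunit of the replicative helicase (chromosome 1, 128359706 to 128359855, minus strand): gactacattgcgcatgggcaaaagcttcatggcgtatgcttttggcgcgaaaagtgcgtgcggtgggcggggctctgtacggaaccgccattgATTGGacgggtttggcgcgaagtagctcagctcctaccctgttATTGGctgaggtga
Mcm5, another subunit of that helicase (chromosome 8, 75109359 to 75109508, plus strand): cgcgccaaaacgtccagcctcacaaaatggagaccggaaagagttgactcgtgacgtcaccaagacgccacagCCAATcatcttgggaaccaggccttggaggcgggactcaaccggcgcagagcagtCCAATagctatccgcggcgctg
Hmgb2, a chromatin protein of dividing cells (chromosome 8, 57511693 to 57511842, plus strand): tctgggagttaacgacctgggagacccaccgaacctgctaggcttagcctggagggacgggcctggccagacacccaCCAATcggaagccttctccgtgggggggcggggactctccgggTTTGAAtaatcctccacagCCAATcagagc
Cks2, a subunit of cyclin-dependent kinases (chromosome 13, 51645082 to 51645231, plus strand): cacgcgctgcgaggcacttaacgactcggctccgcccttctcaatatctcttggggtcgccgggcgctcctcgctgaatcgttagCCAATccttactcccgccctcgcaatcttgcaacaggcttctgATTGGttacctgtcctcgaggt
In the 250 bases before the start, CCAAT was found in 29 of 51 S-phase genes (56.9%) and 31 of 46 spindle genes (67.4%) that the RefSeq table holds, and in 37.5% of all 27025 genes in it. TTTGAA was found in 11.8% of the S-phase genes, 37.0% of the spindle genes and 18.3% of all genes. TTCCCGC was found in 21.6%, 2.17% and 4.38%. These counts describe letters in a window and not sites in use. Only the 3 exact strings were searched, so an E2F site of another form was neither counted nor put in capitals. The stretches of Mcm6 and Mcm5 are therefore not shown to lack E2F sites.

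The levels of these 4 genes were close in the 3 libraries. Mcm6 was at 82.9, 68.2 and 88.5 CPM, Mcm5 at 65.3, 51.9 and 63.2 CPM, Hmgb2 at 1169, 1290.4 and 952 CPM and Cks2 at 313, 343 and 254 CPM in WT, LApc and LApcL. The largest difference among them was that of Hmgb2 in LApcL over LApc, -0.44 (-0.47 to -0.40) on the log2 scale. Of the genes compared, none of the lists for origin licensing, the replication fork, nucleotide synthesis, replication histones, the spindle, or the cyclins and kinases was 2-fold apart in any of the 3 comparisons. The median log2 ratios for LApc over WT, LApcL over WT and LApcL over LApc were -0.19, 0.15 and 0.33 for the 10 of 12 licensing genes compared, -0.17, 0.03 and 0.20 for 21 of 30 replication fork genes, -0.07, 0.10 and 0.16 for 19 of 20 genes of nucleotide synthesis, 0.11, 0.06 and -0.08 for 9 of 68 histone genes, 0.05, -0.07 and -0.12 for 15 or 16 of 29 cyclins and kinases and 0.08, -0.19 and -0.29 for 40 to 44 of 54 spindle genes, against -0.01, -0.05 and -0.04 for all genes compared. The other genes of these lists had too few UMIs to be compared. All 10 licensing genes compared were below 0 in LApc over WT and above 0 in LApcL over LApc. LApc enters both comparisons, so these are not independent, and the licensing genes are part of the S-phase sum above. The share of all genes compared that lay on the same side was not counted, though their medians were -0.01 and -0.04.

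The members of each pair of libraries were compared over genes with a mean of at least 20 CPM, leaving out the genes of the rule, and a gene counted as apart when it differed by 2-fold or more. The 3 comparisons share libraries, so they are not independent of each other. LApc over WT had 27 of 5191 genes higher (0.52%) and 37 lower (0.713%), 64 in all (1.23%). LApcL over WT had 46 of 5087 higher (0.904%) and 57 lower (1.12%), 103 in all (2.02%), and LApcL over LApc had 32 of 5170 higher (0.619%) and 29 lower (0.561%), 61 in all (1.18%).

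In LApc over WT, members had more Sprr2a3, Mt2, S100a6 and Reg3b and less of heat-shock and Paneth cell transcripts. Sprr2a3, a small proline-rich protein of stressed epithelium, was at 1.94, 48.7 and 72.9 CPM in WT, LApc and LApcL. The metallothionein Mt2, a metal-binding protein, was at 63.1, 609.6 and 137 CPM, highest in LApc. Their log2 ratios were 4.65 (4.28 to 5.04) and 3.27 (3.20 to 3.34). Fkbp5, a glucocorticoid-induced chaperone, and Cirbp, a cold-inducible RNA-binding protein, were also higher, by 1.74 and 1.81. The antimicrobial lectin Reg3b was at 2076, 7698 and 2642 CPM, and its relative Reg3g was higher in LApc by 1.45.

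Most of these differences were present in non-cycling cells of the same libraries as well. The non-cycling log2 ratios of LApc over WT were 4.58 for Sprr2a3, 1.77 for Cirbp and 1.88 for Fkbp5, close to those in members. They were smaller than in members for Mt2 (2.52) and Reg3b (0.65). The intervals of members and non-cycling cells did not overlap for either gene, but they do not cover the spread between cells or mice. For Reg3b, 82 WT and 139 LApc members held 50% of the members' UMIs. Gm8730, a ribosomal protein gene model with near-identical copies, was at 188, 2688 and 291 CPM in members, with a log2 ratio of 3.84 in members and 3.92 in non-cycling cells; reads of such copies can be split differently, so this value is uncertain.

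Hspa1a, the inducible heat-shock protein 70, was at 57.7, 0.228 and 0.462 CPM in members and 45.6, 0.526 and 1.11 CPM in non-cycling cells. WT was therefore the library that stood apart, in cycling and non-cycling cells alike. Hsph1, a co-chaperone, followed at 135, 19.3 and 30.4 CPM. The Paneth defensins Defa20, Defa21 and Defa22 were lower in LApc members by 3.16, 2.70 and 2.80 on the log2 scale, again with like values in non-cycling cells (-2.82, -2.32 and -2.40). Of the 7 Paneth markers, 6 were compared and 5 were 2-fold or more lower, with a median of -1.74. The defensins and the gene models Gm15308 and Gm21002 are near-identical copies. The rule limits only Defa24, and some members carried Paneth markers, so free RNA was not told apart from the members' own.

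**Figure D4:**
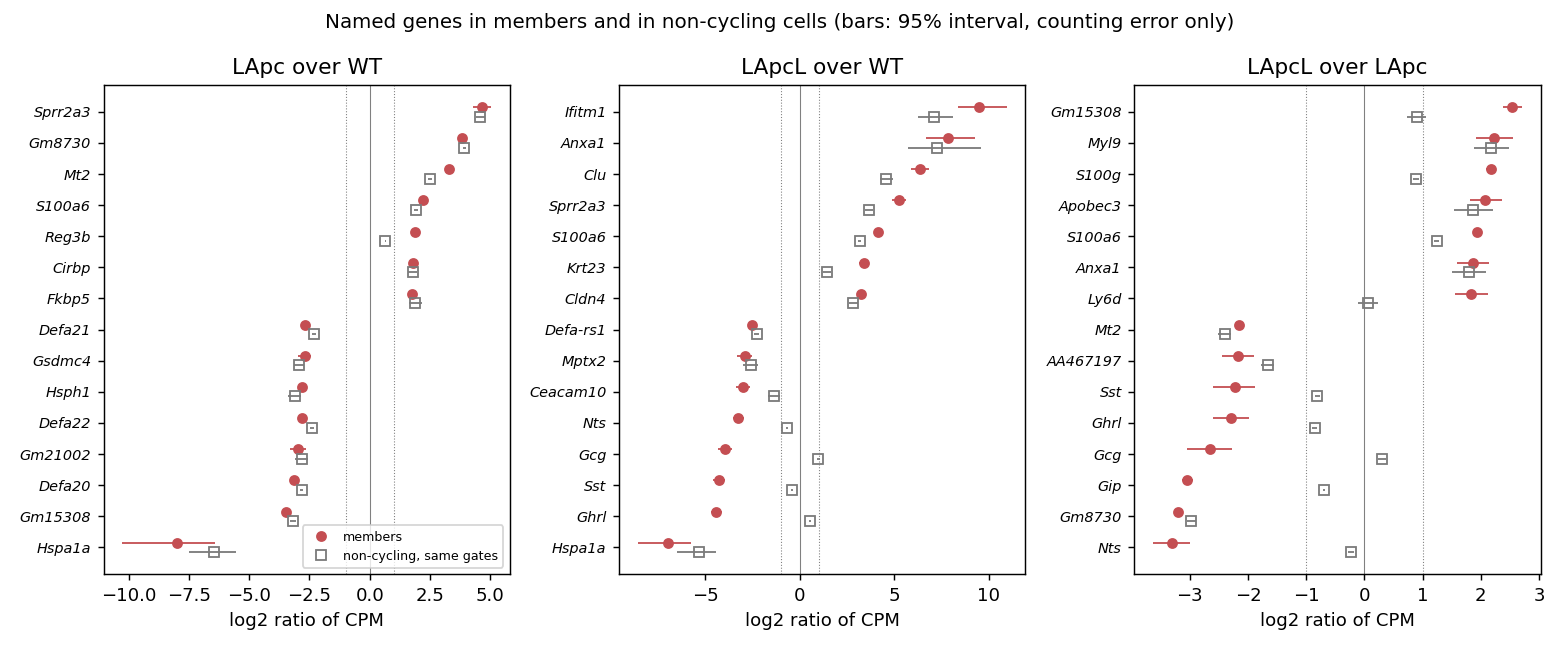
Log2 ratio of CPM (horizontal axis) for the highest and the lowest named genes in members (filled circles) and the same genes in non-cycling cells of the same limits (open squares), 1 panel per comparison; bars are 95% intervals for counting error and dotted lines mark 2-fold. In LApc over WT both symbols lie close together for most genes, whereas the hormone genes Ghrl, Sst and Gcg are far apart in LApcL over WT (Ghrl -4.42 in members, 0.55 in non-cycling cells).

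In LApcL over WT, the highest genes included those that followed the adenoma UMIs. Ifitm1 was at 0.179, 38.7 and 129.7 CPM in WT, LApc and LApcL, Anxa1 at 0.179, 11.1 and 40.4 CPM and the secreted chaperone Clu at 1.13, 35.6 and 92.0 CPM. The log2 ratios of LApcL over WT were 9.50 (8.38 to 10.95), 7.82 (6.69 to 9.27) and 6.34 (5.87 to 6.85). LApc lay between WT and LApcL for each of them, and WT was close to 0. For Anxa1, 5 LApc and 12 LApcL members held 50% of the UMIs. In members with no adenoma UMI the log2 ratios over WT were still 8.88, 6.17 and 5.12, and in non-cycling cells 7.11, 7.28 and 4.58.

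Also in LApcL over WT, the keratin Krt23 was higher on the log2 scale by 3.38 in members and 1.46 in non-cycling cells, and the tight junction gene Cldn4 by 3.21 and 2.84.

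Of the 19 crypt and stem cell genes, 13 were compared and only Cd44 was 2-fold apart, at 19.6, 37.5 and 73.9 CPM in WT, LApc and LApcL, with a log2 ratio of 1.91 (1.76 to 2.06) for LApcL over WT. Other Wnt targets moved less in that comparison: Axin2, a feedback inhibitor, was at 0.49, Sox9 at 0.48, Myc at 0.51 and Ascl2, a stem cell transcription factor, at 0.17. The median of the 13 genes was 0.23. Ribosome biogenesis genes had a median of 0.15 and ribosomal protein genes of 0.19, with no biogenesis gene 2-fold apart. Among the 13 adenoma genes outside the rule 2 reached the level compared, and S100g, a calcium-binding protein, was higher by 2.04.

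Most goblet and enteroendocrine markers compared were 2-fold or more lower in LApcL members than in WT members, while Paneth markers were divided and few enterocyte genes were apart. Fabp6, the ileal bile acid-binding protein, was at 1273, 416 and 222 CPM in WT, LApc and LApcL, with log2 ratios of -2.52 in members and -2.46 in non-cycling cells. The brush border enzyme sucrase-isomaltase, Sis, was the 1 enterocyte gene of 17 that was 2-fold lower, at 144, 145 and 47.0 CPM. Of 6 goblet markers compared, Muc2, Agr2, Zg16 and Clca1 were lower, by 1.35, 1.49, 1.31 and 1.85 on the log2 scale, and none was higher. Their list had a median of -1.33 and a summed log2 ratio of -1.002 in members and -0.63 in non-cycling cells. Tff3, which the rule limits, is part of that sum. Its median share in the non-cycling cells with Apoa4 was 0.134% of UMIs in WT and 0.051% in LApcL. In members it was 0.132% and 0.037%. The share of free RNA in the goblet values was not tested. Of 6 Paneth markers compared, Defa22, Itln1 and Mptx2 were lower, with a median of -1.17. The other way, Lyz1, the lysozyme gene, was at 149.6, 81.3 and 229.7 CPM and the antimicrobial ribonuclease Ang4 at 89.9, 32.9 and 101 CPM. Their log2 ratios of LApcL over WT were 0.62 and 0.17, neither past 2-fold. In LApcL 1 member held 623 of the 2488 Lyz1 UMIs, and 1 member held 605 of the 1095 Ang4 UMIs. In WT it took 428 members to hold 50% of the Lyz1 UMIs and 286 for Ang4. Of 6 enteroendocrine markers, 5 were lower, with a median of -1.91. Dll1 and Atoh1, which start the secretory fate, were below the level compared, at 12.4, 10.8 and 6.09 and 15.2, 12.8 and 8.22 CPM. Jun and Junb, immediate-early genes that dissociation can induce, were higher by 1.18 and 1.197, and by 0.85 and 0.61 in members with no adenoma UMI.

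The regulators of cell fate that could be compared were close to level. None of the 12 absorptive regulators compared was 2-fold apart in any comparison, with medians of -0.03, -0.21 and -0.19 for LApc over WT, LApcL over WT and LApcL over LApc. Of all genes compared, 1.23, 2.02 and 1.18% were 2-fold apart, so finding none in lists this short is near that share. Hes1, the Notch target that blocks the secretory fate, was at 146, 128 and 157 CPM in WT, LApc and LApcL, Klf5, a factor of dividing crypt cells, at 269.9, 304 and 368 CPM, and Hnf4a, a factor of enterocyte maturation, at 194, 183 and 159 CPM. Of the 15 secretory regulators, 3 or 4 reached the level compared and none of these was 2-fold apart. Dll1 and Atoh1, given above, did not reach that level and were lowest in LApcL. Xbp1, which serves protein secretion, was at 119, 113 and 91.1 CPM and Sox4 at 78.0, 76.6 and 100.3 CPM. Tuft markers were below the level compared in every comparison and summed to 41.4, 28.5 and 41.8 CPM over 6 genes.

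After Hspa1a the next lowest genes in LApcL over WT were hormones of enteroendocrine cells, and a few cells carried them. Ghrl, which encodes ghrelin, was at 207, 47.4 and 9.70 CPM in members, Sst, somatostatin, at 141, 34.2 and 7.29 CPM and Gcg, the glucagon precursor, at 90.6, 36.5 and 5.82 CPM. In WT a single member held 3446 of the 6953 Ghrl UMIs (49.6%), and 2 members held 50% of the Ghrl and of the Sst UMIs. For Gcg, 7 of the 2599 WT members held 50%. In LApc 1 member held 73.1% of the Sst UMIs, and another hormone, Nts (neurotensin), also had 73.5% of its UMIs in 1 member. Non-cycling cells showed no gap of that size in LApcL over WT, with log2 ratios of 0.55 for Ghrl, 0.98 for Gcg and -0.42 for Sst. By contrast 150 WT members held 50% of the Mt2 UMIs and 149 those of Ceacam10.

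These hormone values depended on where the limits lay. With 3 or more proliferation UMIs the log2 ratio of Gcg in LApcL over WT was -0.82, and that of Sst -0.86. With the cells of highest doublet score removed, the ratios were -3.35 for Ghrl, -4.59 for Sst and -4.94 for Gcg. With each cell thinned to 5000 UMIs before the rule they were -2.74, -0.64 and -4.84, so Sst was no longer 2-fold lower. For Nts the thinned ratio of LApcL over WT was -0.09. Since so few cells held these UMIs, the values do not show a lower level across the members. Chgb, which encodes a granule protein of enteroendocrine cells, was at 223, 97.1 and 53.6 CPM, lower in LApcL than in WT by 2.06 on the log2 scale. The precursor of the incretin GIP, Gip, was at 334, 816 and 98.9 CPM, with 3 WT, 4 LApc and 1 LApcL members holding 50% of its UMIs. Gip was 2-fold higher in LApc over WT (1.29), but not with the cells of highest doublet score removed (0.21).

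**Figure D5:**
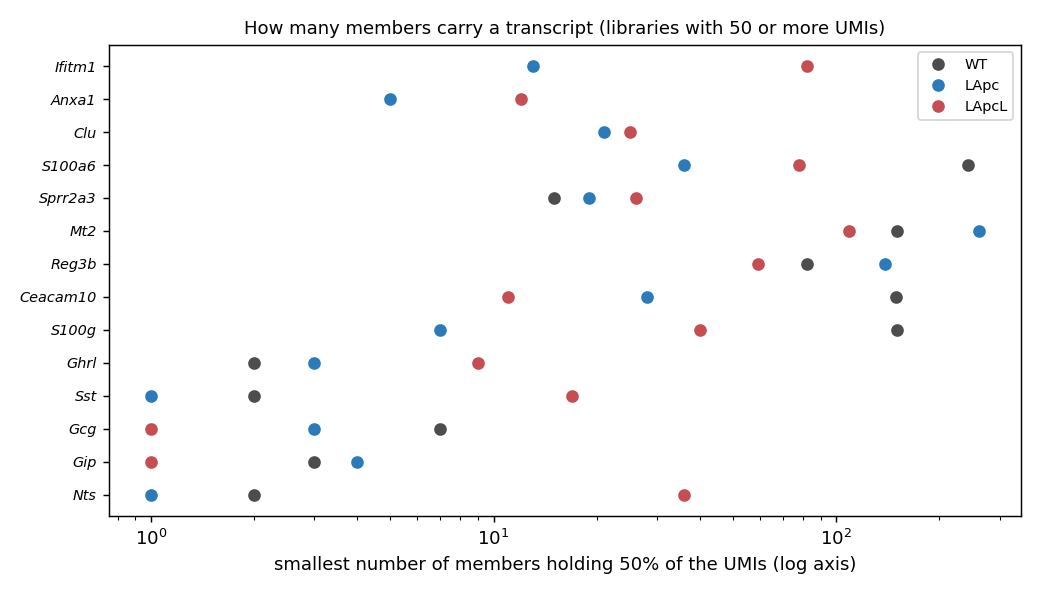
Smallest number of members that together hold 50% of the UMIs of a gene (horizontal axis, logarithmic), for a selection of named genes and 3 libraries (colours), where the gene had at least 50 UMIs. The hormone genes Ghrl, Sst, Gcg, Gip and Nts sit at 1 to 7 cells in WT and LApc, whereas Mt2 and Reg3b need 59 or more cells in every library.

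LApcL and LApc are the libraries with the Apc fl/fl genotype in common. S100g was at 138 (132 to 144) CPM in LApc and 621 (606 to 636) CPM in LApcL, but 7 LApc and 40 LApcL members held 50% of its UMIs. Ly6d, a surface protein, was higher in LApcL over LApc by 1.84 on the log2 scale in members and 0.07 in non-cycling cells. Few cells carried it, with 7 LApc and 9 LApcL members holding 50% of its UMIs. Myl9, a myosin light chain of contractile cells, was at 0.298, 8.14 and 38.1 CPM in WT, LApc and LApcL and differed by 2.23 in members and 2.18 in non-cycling cells. Apobec3, a cytidine deaminase that restricts retroviruses, was at 35.4, 10.7 and 45.1 CPM, lowest in LApc, and differed by 2.08.

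On the lower side, Mt2 and Gm8730 were nearer to the WT level in LApcL than in LApc, with log2 ratios of -2.15 and -3.21 in LApcL over LApc. Apoa4, Apoc3, Sis and Reg3b were the 4 of 17 enterocyte genes 2-fold lower, and the list had a median of -0.71. Apoa4, an apolipoprotein of lipid-loaded enterocytes, was at 242, 564 and 212 CPM, with -1.41 in members and -1.08 in non-cycling cells. MHC class II genes, which present antigen, were lower by a median of 0.64 on the log2 scale over 6 genes, and 1 of them, H2-DMb1, was past 2-fold. Cd74, the class II chaperone, was at 378, 581 and 378 CPM, highest in LApc. The Paneth markers 2-fold or more higher were Lyz1 and Ang4, with 1.499 and 1.62. Few cells carried much of Lyz1: 11 LApc and 17 LApcL members held 50% of its UMIs. A single LApcL member held 623 of the 2488 Lyz1 UMIs there. With each gene's UMIs per cell capped at the 99th percentile of its library, the Ang4 value was 0.24, so the Ang4 difference rested on a few cells.

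Within each library, clusters of members carried markers of the crypt or of a mature lineage. In WT the clusters included a crypt-like group of 446 members, 17.2% (15.7 to 18.7%) with Ascl2, Olfm4, Smoc2 and Slc12a2, a goblet-like group of 315 members, 12.1% (10.9 to 13.4%) with Muc2, Fcgbp, Clca1 and Spink4, and 2 enterocyte-like groups of 289 and 193 members. An enteroendocrine-like group of 114 members, 4.39% (3.63 to 5.25%) with Chga and Chgb and a tuft-like group of 53 members, 2.04% (1.53 to 2.66%) with Dclk1, Trpm5 and Avil were smaller. A Paneth-like group held 155 WT members. An unnamed WT cluster of 272 members was led by Cd74, Reg3g and the MHC class II genes, and another of 344 by the replication genes Tcf19, Hells and Ung, which stood outside the removed lists. Muc2 was at 2095 CPM in the goblet-like group and Chgb at 4192 CPM in the enteroendocrine-like one. Since cells with 2% Tff3 were left out by the rule, the goblet-like cells are those below that limit.

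The other libraries were clustered separately, and not every kind of group was named in each. LApc had a crypt-like group of 314 members, 20.9% (18.9 to 23.1%), 2 enterocyte-like groups of 328 and 190 members, an enteroendocrine-like group of 34 and a tuft-like group of 15. Its 150 cells with all 6 detected goblet markers also had 4 Paneth markers raised and were left unnamed. LApcL had a crypt-like group of 120 members, 11.8% (9.88 to 13.9%), an enterocyte-like group of 134, a goblet-like group of 86 and a Paneth-like group of 51 members whose median depth, 4261 UMIs, was well below that of the library's members. A further 46 LApcL members with both enteroendocrine and tuft markers were left unnamed. Group sizes are not compared between libraries, since the groups were rebuilt in each.

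In WT the share of cells with an adenoma UMI was highest in the tuft-like group: 6 of the 53 tuft-like members (11.3%) held 1 adenoma UMI, against 37 of all 2599 WT members. The crypt-like group held 13 of those 37. The enterocyte-like groups held 3 of them. In LApc 4 of the 15 tuft-like members held 1.

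Set beside cycling cells that did hold Lgr5, members had less Gkn3 and Slc12a2 and more Rbp7 and Alpi. Gkn3, a stem cell gene of the small intestine, was at 42.0, 43.0 and 53.6 CPM in members of WT, LApc and LApcL and at 169, 170.4 and 179.9 CPM in cycling Lgr5+ cells. Slc12a2, an ion transporter of the crypt, was lower by 1.35, 1.36 and 1.47 on the log2 scale. Rbp7, a retinol-binding protein, was higher in members by 1.56, 1.39 and 2.05, and Alpi, the brush border alkaline phosphatase, by 1.14, 0.97 and 2.72. The limit on Lgr5 chose these cells, and the genes were named for the size of the difference, so this is a description.

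Against cycling cells with 2 or more adenoma UMIs, members had more Rbp7, Dmbt1 and Otc in both LApc and LApcL. Rbp7 was at 64.7 CPM in LApc members and 4.21 CPM in the excluded cells, and at 45.5 and 2.87 CPM in LApcL. Dmbt1, a secreted mucosal scavenger protein, was higher by 3.58 and 4.04, and Otc, an enzyme of the urea cycle used for citrulline synthesis in enterocytes, by 3.10 and 3.26. The genes lower in members were nearer to the excluded cells in LApcL than in LApc. Myl9 differed by -5.80 in LApc and -3.14 in LApcL, Prox1, a Wnt-induced transcription factor of adenomas, by -4.76 and -2.75, and S100g by -5.59 and -2.73.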

How the data were processed

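EpCAM+ cells of the small intestine were profiled by droplet single-cell RNA-seq, 1 library for each of 3 genotypes. Per the submitters' processing notes, the authors aligned reads to mm10 with Cell Ranger 2.1.1, and deposited whole-number UMI counts for 27998 genes per barcode; the sources used here do not state the kit chemistry for each library, v2 or v3. Members and gene lists were chosen with earlier results of these data known.

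UMIs were summed over members and scaled to CPM with exact Poisson intervals. Ratios have exact conditional binomial intervals, and shares have exact Clopper-Pearson intervals. Genes with a mean of at least 20 CPM over both libraries were compared, and 2-fold was the limit of size. Named genes were the 8 highest and 8 lowest of each comparison, members of the 26 lists, and the 10 highest over non-cycling cells or over cycling adenoma cells; cell classes such as cycling Lgr5+ cells, the genes lowest in the comparisons of classes, the genes by cycle position, cluster leaders and the counts of cells per gene were chosen after values were seen, as was the rule that names clusters. Clusters came from scanpy 1.11.5 (Leiden, resolution 0.5, 15 components, 20 neighbours, 1500 variable genes). A cluster took the class with the largest share of its list 2-fold above the other clusters, if 3 or more markers were raised, at least 1 gene of the list was among the cluster's 10 leading genes, no other list had more there, and no other list had over 50% of its genes raised. Scrublet scores marked 203 WT, 181 LApc and 121 LApcL members as possible doublets, which were kept as in the rule and removed in an alternative. Some named genes are not reported here. The ratio calculations were tested on simulated data.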

Additional observations from a re-analysis of the deposited data

Results flagged for a closer look

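Barcodes that failed the limits on detected genes and mitochondrial transcripts entered no comparison, and some of them carried proliferation transcripts. Of the 416 LApcL barcodes that failed, 71 held at least 4 UMIs of the 8 proliferation genes, which is 17.1% (13.6 to 21.0%). The WT library, which served as the control, had 9 of 62 such barcodes (14.5%, 6.86 to 25.8%), and LApc had 53 of 2350 (2.26%, 1.69 to 2.94%). The LApcL value was above the WT value, with intervals that overlapped, and no replicate is at hand to test the difference.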

How the results depend on the processing

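No paired analysis was possible because each genotype has 1 library, so no library could be left out either, and every statement rests on 1 mouse per genotype. The log2 ratios of the members' share for LApc over WT were -0.87 with 8 or more proliferation UMIs, -0.60 with mitochondrial UMIs of at most 10%, -0.22 with cells thinned to 5000 UMIs (shallower cells left out) and -0.95 with the cells of the same limits as denominator. For LApcL over WT they were -1.79 with 3 or more proliferation UMIs, -2.21 with 8 or more, -2.76 with 0 adenoma UMIs, -1.10 thinned and -0.59 over the same limits. For LApcL over LApc they were -1.95 with 0 adenoma UMIs, -1.39 with the mitochondrial limit and -0.88 thinned, and the direction turned to 0.36 over the same limits, where the denominator itself leaves out the adenoma cells. Without the filter beyond 1 UMI in each library, 1659 genes were 2-fold higher and 447 lower in LApc over WT, 1612 and 603 in LApcL over WT, and 890 and 773 in LApcL over LApc, with 41, 51 and 40 genes of the lists. With a mean of 100 CPM or more the counts were 10 and 18, 10 and 23, and 6 and 10, with 9, 10 and 6 list genes. Thinned, there were 106 and 125 in LApcL over WT (31 list genes) and 92 and 98 in LApcL over LApc (33). Without the members that held 1 adenoma UMI, 27 genes were higher in LApcL over WT and 21 in LApcL over LApc. The share of members richer in S-phase than in spindle UMIs was 43.9% (WT), 37.2% (LApc) and 58.1% (LApcL) with 3 or more proliferation UMIs, 32.8%, 23.3% and 42.1% with 8 or more, and 32.1%, 26.5% and 42.8% thinned. Among the values of named genes under the settings that can change a gene's ratio apart from the rest, which leaves out the filters and the scalings, 686 kept their direction and their side of 2-fold, 28 did not reach 2-fold, and 2 turned: Gcg in LApcL over LApc with 3 or more proliferation UMIs (0.72) and Sst in LApcL over LApc thinned (1.70). The cause was not tested for any of these changes. The capped UMIs, the unthinned cycle position, the membership alternatives for cycle position and the denominator of the same limits were chosen after seeing the data.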
